A study of Homo sapiens with 2 samples.

Results

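GATA2 binding was examined at the 4 HOX clusters, with HOXB13 and the other paralogue group 13 genes HOXA13, HOXC13 and HOXD13 at one end of each. Members were the peaks of the deposited hg19 list whose midpoint lay in 1 of 4 windows, each a cluster with 0.1 Mb on either side: HOXA on chromosome 7 from 27.03 to 27.35 Mb, HOXB with HOXB13 on chromosome 17 from 46.5 to 46.91 Mb, HOXC on chromosome 12 from 54.23 to 54.55 Mb and HOXD on chromosome 2 from 176.85 to 177.16 Mb. These windows held 30 of the 36797 peaks, or 0.0815% of the list. The list comes from chromatin immunoprecipitation with an antibody against GATA2, followed by sequencing, in 1 group of 2 replicate samples of LNCaP, a human prostate cancer line that responds to androgen. Cells were grown with 10% serum and then kept for 3 days in 5% serum treated with charcoal, a step that removes steroids, and no control group is among the samples used here. There is 1 list for both replicates, so no value has a replicate error and the read depth behind a peak is unknown. The list also holds no score below 80.01. A region without a peak is therefore one in which none was called at this depth and lower limit, not one shown to be unbound.

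HOX genes encode homeodomain transcription factors that pattern the body axis. They sit in clusters in the order of their paralogue groups and are transcribed in 1 direction, with group 1 at the 3′ end and group 13 at the 5′ end, and the group 13 genes act in the most posterior structures. HOXB13 is a lineage factor of the prostate and binds beside the androgen receptor, HOXA13 and HOXD13 act in limb and urogenital development, and HOXC13 controls hair and nail keratin genes. GATA2 is a zinc-finger factor that acts with FOXA1 and the androgen receptor at enhancers of prostate cells. The GRCh38.p14 RefSeq table lists 39 HOX genes in these clusters: 11 in HOXA, 10 in HOXB and 9 each in HOXC and HOXD.

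The HOXC window held the most GATA2 peaks and the HOXD window the fewest. HOXC had 12 peaks, HOXA 8, HOXB 6 and HOXD 4, in windows of 320, 320, 410 and 310 kb. In peaks per Mb this was 37.5 for HOXC (exact Poisson 95% interval 19.4 to 65.5), 25 for HOXA (10.8 to 49.3), 14.6 for HOXB (5.37 to 31.9) and 12.9 for HOXD (3.52 to 33.0). Together the windows held 22.1 peaks per Mb (14.9 to 31.5), against 12.8 on the autosomes and X and 14.4 in the next 1 Mb on each side of the windows. These intervals cover counting only and treat peaks as independent. Over the 6 pairs of windows, every 95% interval of the ratio of densities included 1. The widest contrast, HOXC to HOXD, was 2.91 (0.881 to 12.4), so the 4 windows could not be ranked beyond counting error.

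To show where these counts lie among other regions, the autosomes and X were divided into adjoining regions of the same length. At least 12 peaks, as in HOXC, lay in 1.84% of 320 kb regions, and at least 8, as in HOXA, in 12.6%. Regions of 410 kb with at least 6 peaks, as in HOXB, made up 40.9%, and regions of 310 kb with at least 4, as in HOXD, made up 49.8%. The HOXB and HOXD windows thus held counts near the middle of the list, and the HOXC window held a count reached by few regions.

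The counts varied more inside the clusters than in their flanks. The flanks, 200 kb in all at each cluster, held 5 peaks at HOXA and 4 at each of HOXB, HOXC and HOXD. Inside the clusters, HOXC held 8 peaks in 120 kb, HOXA 3 in 120 kb, HOXB 2 in 210 kb and HOXD 0 in 110 kb. In density this was 66.7 peaks per Mb in HOXC (28.8 to 131), 25 in HOXA (5.16 to 73.1) and 9.52 in HOXB (1.15 to 34.4), and the count of 0 in HOXD allows up to 33.5 per Mb. The density inside HOXC was 7 times that inside HOXB, with a 95% interval of 1.40 to 67.7. Against HOXD, where the count was 0, the lower 95% bound of the ratio was 1.56. Neither of these held once the intervals were widened for the 6 pairs compared, when the lower bounds were 0.913 and 0.932. The other 4 pairs had 95% intervals that included 1. Among 120 kb regions, 0.469% held at least the 8 peaks of the HOXC cluster and 22.3% at least the 3 of HOXA. A count as low as the 2 of HOXB was met in 54.6% of 210 kb regions, and a count of 0, as in HOXD, in 33.4% of 110 kb regions. A region of that length without a peak is therefore common in this list.

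**Figure D1:**
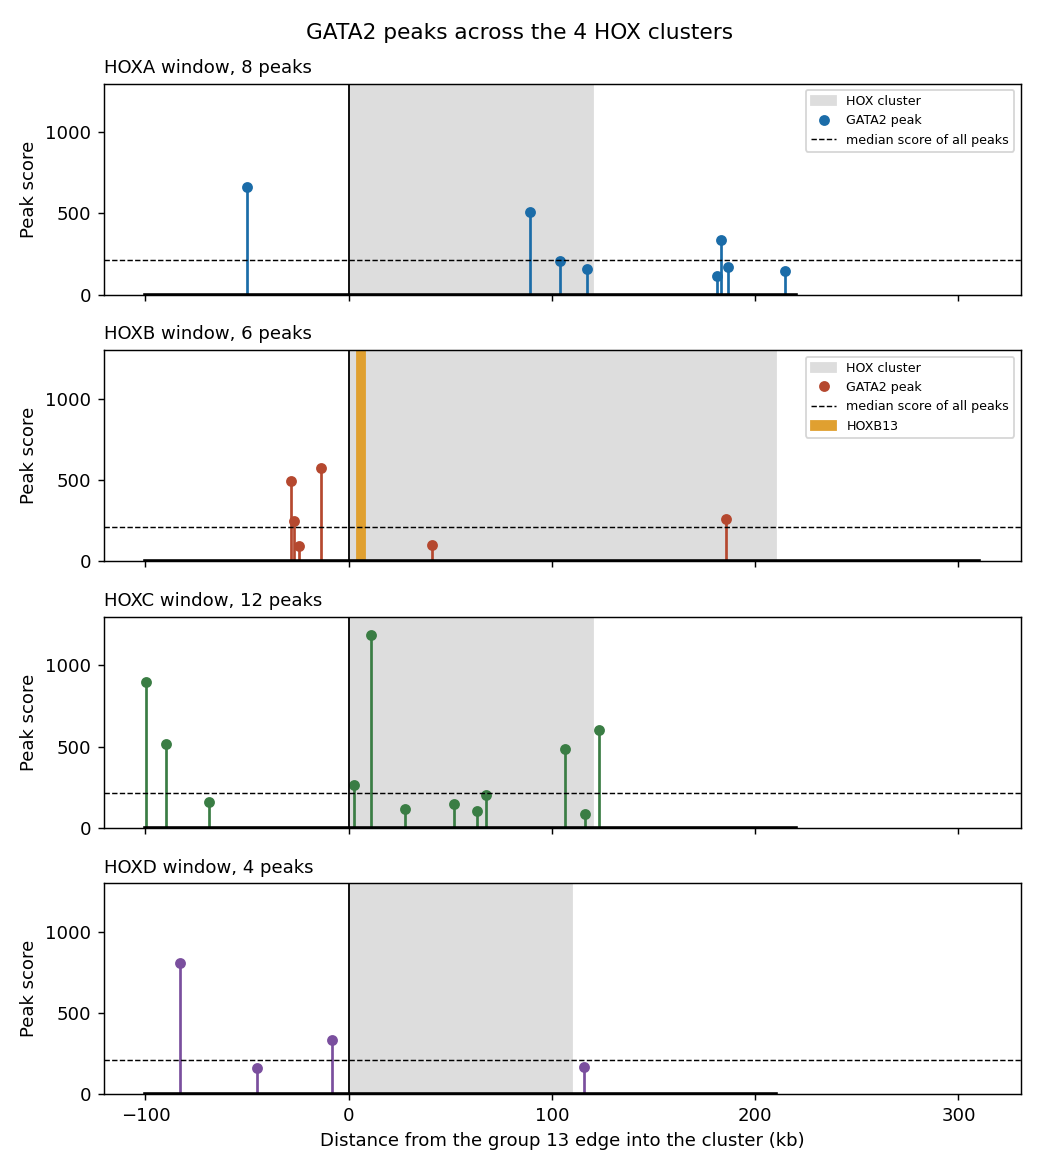
GATA2 peaks in the 4 HOX windows, with the distance of each peak midpoint from the group 13 edge of its cluster on the horizontal axis (kb, positive into the cluster) and the authors' peak score on the vertical axis. Grey marks the cluster, the bar at the axis the window, the dashed line the median score of all peaks (212.2), and the HOXC cluster holds 8 peaks where the HOXD cluster holds 0.

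**Figure D2:**
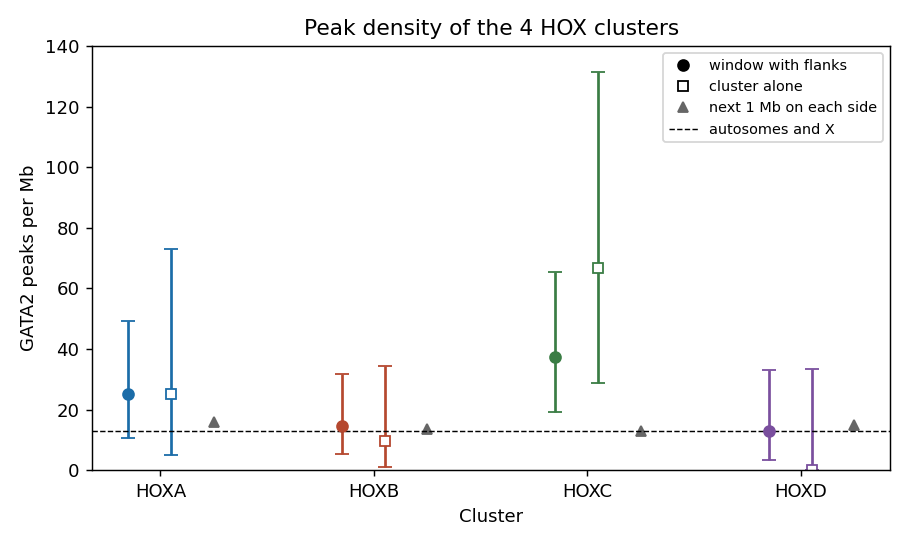
GATA2 peaks per Mb for each window (filled circles) and for the cluster without flanks (open squares), with exact Poisson 95% intervals that cover counting only. Triangles give the next 1 Mb on each side and the dashed line the autosomes and X at 12.8 peaks per Mb; the HOXC cluster lies highest, at 66.7.

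At HOXB13 itself no GATA2 peak was called, and the nearest lay some distance beyond the gene. HOXB13 occupies 46.802 to 46.806 Mb of chromosome 17 in hg19. None of the list's peaks had its midpoint within 10 kb of this interval, 1 did within 25 kb, and 5 did within 50 kb. The nearest, at 46823462 to 46824110, lay 17.8 kb beyond the gene on the high-coordinate side, which is upstream of HOXB13 since the gene is transcribed towards lower coordinates. With a width of 649 bp and a score of 574.56, it scored above 85.9% of the list and was wider than 98.0% of it. For comparison, 35.9% of 4 kb intervals along the autosomes and X had a peak midpoint at least that near, and their median distance was 30.4 kb. The distance at HOXB13 is thus a common one for this list.

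The peaks upstream of HOXB13 formed a close group. There were 4 of them over 15.1 kb, from 17.8 to 32.3 kb beyond the gene, with steps of 1.44 to 10.6 kb between midpoints. After the first came a weak peak at 46834247 to 46834541 with a score of 92.33, near the lowest score of the list, 80.01. The third, at 46836676 to 46837104, scored 246.14, and the fourth, at 46838147 to 46838512, scored 493.91, above 81.9% of the list. On the other side of HOXB13 the nearest peak, at 46768925 to 46769042, lay 33.0 kb away, measured 118 bp and scored 99.99, above 11.9% of the list. The 3 highest scores within 50 kb of HOXB13 were thus all upstream of it. In the RefSeq order TTLL6, which encodes an enzyme of the tubulin tyrosine ligase-like family, is the next protein-coding gene beyond HOXB13, and PRAC1 and PRAC2, small genes expressed in prostate and rectum, lie between HOXB9 and HOXB13. Whether any of these peaks falls within those genes was not analysed here, since no hg19 annotation was used.

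The remainder of HOXB was sparse. Only 1 other peak lay in the window, at 46624377 to 46624702 in the group 1 end of the cluster, with a score of 259.62. Between it and the peak at 46768925 no peak was called over 144 kb, which took in 68.7% of the cluster. Stretches that long made up 15.1% of those between neighbouring peaks in the list and held 53.5% of the bases between peaks. Here and for the other clusters below, the longest of a window's stretches is set beside single stretches, which makes such shares of stretches smaller.

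At the group 13 ends the clusters ranged from 0 to 5 peaks. Each end was taken as 50 kb on either side of the cluster's group 13 edge. HOXB had 5 peaks there, HOXC 3, HOXD 2 and HOXA 0, and the opposite ends had 1 in HOXB, 3 in HOXC, 1 in HOXD and 3 in HOXA. Over the 4 clusters this was 10 peaks at the group 13 ends and 8 at the opposite ends. At this width HOXB and HOXD had more at the group 13 end, HOXA more at the opposite end, and HOXC as many at both. With 25 kb on either side, HOXD had 1 at each end and HOXC 2 against 3 at the opposite end. The order within HOXC and HOXD thus depends on the width. With 100 kb HOXC had 9 against 7, but its edges lie 120 kb apart, so these ends overlap and share peaks. Of 100 kb regions, 3.06% held at least 5 peaks, 16.6% at least 3 and 34.4% at least 2, and 36.4% held 0. The HOXB end was the least common of these counts, and those of HOXD and HOXA were common ones. This lead of HOXB also depends on the width. With 25 kb on either side the HOXB end had 2 peaks, as HOXC did, and with 100 kb it had 5 against 9 in HOXC. The HOXA value rests on its limit, as the peak at 27299815 to 27300228 had its midpoint 50.02 kb outward of the edge and would be counted if any overlap were enough.

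**Figure D3:**
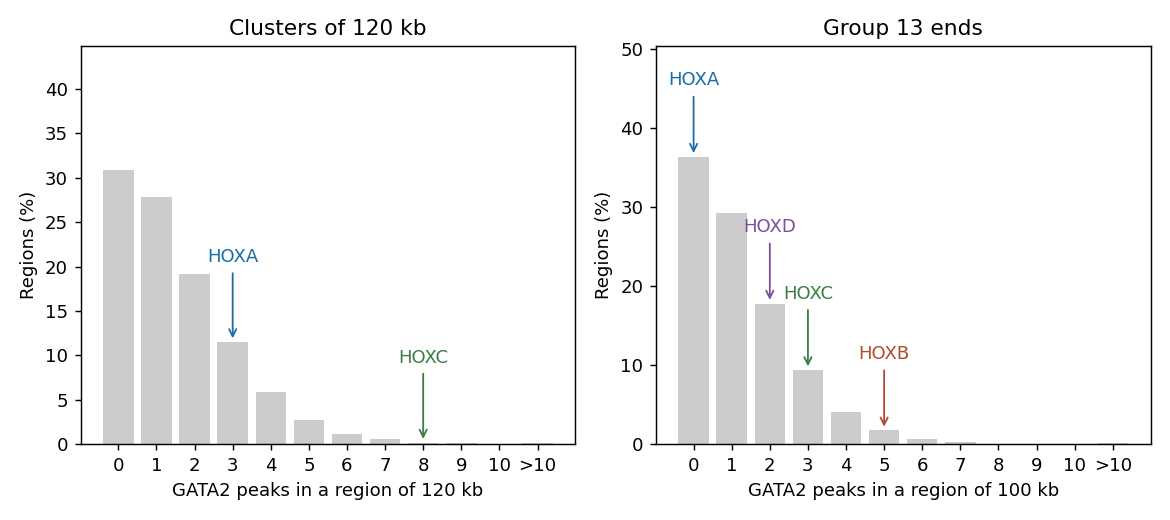
Share of regions of the autosomes and X (%) by the number of GATA2 peaks they hold, for regions of 120 kb (left) and 100 kb (right). Arrows mark the HOXA and HOXC clusters, with 3 and 8 peaks, on the left, and the group 13 ends on the right, with 0 in HOXA, 2 in HOXD, 3 in HOXC and 5 in HOXB.

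At the HOXC13 end lay the highest-scoring peak of all 30. It stood at 54340873 to 54341344 on chromosome 12, 11.1 kb inside the group 13 edge, measured 472 bp and scored 1189.78, rank 681 in the list and above 98.1% of it. A second peak, at 54332243 to 54332573, 2.41 kb inside the edge, scored 260.57, and the third, at 54357439 to 54357587, scored 112.71. The end thus held 1 peak far above the list's median of 212.2, 1 moderately above it and 1 below it. HOXC13 is the first gene at this edge in the RefSeq order, followed by HOXC12, the noncoding RNA gene HOTAIR and HOXC11, which lie between HOXC13 and HOXC10. Which of these genes a given peak lies in or beside was not analysed here.

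Further into HOXC, 5 more peaks lay inside the cluster. Their scores were 146.41, 100.52, 198.99, 486.28 and 86.2 in order from the group 13 side, so 1 of the 5 passed the list's median. Just beyond the opposite edge, by 3.24 kb, a peak at 54453054 to 54453419 scored 600.02. In the flank beyond HOXC13 there were 3 peaks, scoring 899.03, 515.03 and 155.35 from the outside inwards. The first of them, at 54230110 to 54230538, lay 0.324 kb inside the window's limit, and the nearest peak left out, at 54221261 to 54221637 with a score of 428.74, lay 8.55 kb outside it. The longest stretch between neighbouring peaks of the HOXC window was 70.6 kb, the shortest such value of the 4 windows. Of stretches in the list, 34.4%, with 78.6% of the bases between peaks, reached that length. This value counts only stretches with a peak of the window at both ends. From the midpoint of the peak at 54453054 to the window's high-coordinate limit, 96.8 kb, no further peak was called.

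HOXA was empty at its group 13 end. The highest-scoring peak inside the cluster, at 27160560 to 27160855, scored 509.47, above 82.7% of the list. From there to 27299814, over 139 kb, no peak was called, a stretch that took in 74.3% of the cluster including the HOXA13 edge. Stretches at least that long made up 16% of those in the list and held 55.2% of the bases between peaks. It ended at the highest-scoring peak of the window, with a score of 660.88. In the RefSeq order EVX1, a homeobox gene related to fly even-skipped, is the next protein-coding gene beyond HOXA13. A peak just outside the window on the high-coordinate side, at 27386294 to 27386915, scored 1241.9, above every peak within the 4 windows, and lay 36.6 kb from the window's limit.

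HOXD held peaks only around the cluster. On the HOXD13 side, the peak at 176941778 to 176942118 lay 8.05 kb outward of the edge and scored 334.81, and the peak at 176904591 to 176904829 lay 45.3 kb outward and scored 160.77. Farther out, at 176866892 to 176867331, was the highest-scoring peak of the window, with a score of 811.42, above 93.1% of the list. On the HOXD1 side the only peak, at 177065800 to 177065945, was 146 bp wide, scored 168.3 and lay 5.87 kb beyond the edge. The stretch between, 124 kb, took in 100% of the cluster, and 18.6% of stretches in the list, with 59.6% of the bases between peaks, were as long. In the RefSeq order EVX2, the counterpart of EVX1, is the next protein-coding gene beyond HOXD13.

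Sequences upstream of 4 gene starts are shown from this empty cluster and the empty HOXA13 end, to set the letters of GATA sites beside places where no peak was called. HOXA13 and HOXD13 are the group 13 genes in the table, and HOXD12 and HOXD4 were picked because they hold such letters, which 5 of the 8 HOXD genes in the table do not. They were taken from RefSeq (GRCh38.p14) as the 250 bases before the start, 5′ to 3′ on the gene's strand, and their positions must not be compared with the hg19 positions of the peaks. Capitals mark, on either strand, the usual GATA site AGATAA or one of its forms with another first base (TGATAA), with another last base (AGATAG) or with both of these changed (TGATAG).
HOXA13, GRCh38.p14 chr7:27200092-27200341, minus strand: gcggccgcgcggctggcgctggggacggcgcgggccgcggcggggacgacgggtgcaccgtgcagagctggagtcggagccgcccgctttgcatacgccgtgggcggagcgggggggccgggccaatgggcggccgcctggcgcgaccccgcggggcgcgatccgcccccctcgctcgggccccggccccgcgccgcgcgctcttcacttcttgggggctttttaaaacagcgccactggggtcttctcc
HOXD13, GRCh38.p14 chr2:176092471-176092720, plus strand: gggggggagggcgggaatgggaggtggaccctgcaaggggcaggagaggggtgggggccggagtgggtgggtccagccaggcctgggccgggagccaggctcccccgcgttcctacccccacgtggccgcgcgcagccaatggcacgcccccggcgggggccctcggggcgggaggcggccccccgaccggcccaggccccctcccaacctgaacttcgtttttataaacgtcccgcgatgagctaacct
HOXD12, GRCh38.p14 chr2:176099545-176099794, plus strand: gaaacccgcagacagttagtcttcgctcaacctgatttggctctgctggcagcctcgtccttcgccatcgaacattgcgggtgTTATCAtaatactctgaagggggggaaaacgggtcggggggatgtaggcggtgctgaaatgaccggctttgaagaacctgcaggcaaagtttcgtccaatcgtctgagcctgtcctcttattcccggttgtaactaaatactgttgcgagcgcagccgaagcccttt
HOXD4, GRCh38.p14 chr2:176151300-176151549, plus strand: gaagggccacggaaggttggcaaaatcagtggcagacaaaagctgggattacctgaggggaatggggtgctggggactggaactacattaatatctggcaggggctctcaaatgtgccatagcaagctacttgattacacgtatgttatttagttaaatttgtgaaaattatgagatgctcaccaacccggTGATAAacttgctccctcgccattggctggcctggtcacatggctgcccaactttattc
The 250 bases of HOXA13 and HOXD13 held none of these letters, and 78% and 74% of them were G or C. HOXD12 held TTATCA, the reverse complement of TGATAA, beginning 167 bases before the start, in a sequence with 53.2% G or C. HOXD4 held TGATAA beginning 59 bases before the start, in a sequence with 47.6% G or C. Over the table, 22.3% of 35116 starts had a match in these 250 bases, and of the 27 HOX starts 5 had one, or 18.5%, a share near that background. The 5 belonged to HOXA3 (2 of its 7 starts), HOXD12, HOXD4 and HOXD3. By gene this was 3 of the 8 HOXD genes in the table and 1 of the 9 HOXA genes, and the table holds only 2 HOXC genes and 1 HOXB gene, so the clusters were not compared. A match is a string of letters and not a site shown to be bound, and the absence of one speaks only of this stretch.

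In score and shape the 30 peaks were like the rest of the list. Their scores ran from 86.2 to 1189.78 with a median of 225.95 (order-statistic 95% interval 158.85 to 486.28), against 212.2 for all peaks. Of the 30, 15 scored above the list's median (background 50%), 10 above its upper quartile of 396.84 (background 25%) and 3 among the best-scoring 10% (background 10%). The 3 were 2 peaks of HOXC and 1 of HOXD, and HOXA and HOXB had 0 each. Median scores by window were 189.16 in HOXA, 252.88 in HOXB, 229.78 in HOXC and 251.56 in HOXD, and their ranges overlapped widely. The median width was 303 bp (95% interval 234 to 357 bp), against 293 bp in the list, and width and score rose together among the 30 as in the list (Spearman's rho 0.83 in both, a description over peaks that share both libraries). A neighbouring midpoint within 10 kb was found for 15 of the 30, or 50%, against 33.2% of the list. By window this was 9 of 12 in HOXC, 3 of 6 in HOXB, 3 of 8 in HOXA and 0 of 4 in HOXD.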

How the data were processed

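Per the labels' protocols, GATA2-bound DNA from 2 LNCaP samples was amplified for 16 cycles, selected at about 225 bp with adapters and sequenced. The submitters' processing notes name Bowtie and the hg19 build, and the deposited peak names show that the authors called peaks with MACS. Of the versions, the control library, duplicate handling and pooling of replicates, the sources used here give nothing. The deposited list gives each peak a position and a score without a stated scale, which was used only to rank and describe peaks. The list's name carries the tag "p8", whose meaning is not stated. Its lowest score is 80.01, so regions scoring lower are absent from it. Depth is unknown.

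From it were computed counts by midpoint, exact Poisson intervals of densities, exact conditional intervals of their ratios (95%, and widened over 6 pairs), order-statistic intervals of medians, and counts in adjoining regions of equal length between the first and last peak of each autosome and X, without peak-free stretches over 2.5 Mb. Starts are 1-based. Counting was tested on simulated data. No p-value was computed. Peaks named singly were those at the group 13 ends, those within 50 kb of HOXB13 and the 3 best-scoring of each window. Others, named to complete each window or its limits, were chosen after their values were seen. Windows, members and lists were chosen with earlier results of these data known. The orientation and order of the genes come from the GRCh38.p14 RefSeq table and general knowledge, and its coordinates were not used with the peaks. Some values at HOXA are not reported here. Alternatives were the better-scoring 50% and best-scoring 10%, merging of peaks under 500 bp apart, overlap in place of midpoint, clusters without flanks, ends of 25 and 100 kb, and shifted regions. Python 3.11.15, numpy 2.4.6, pandas 2.3.3, scipy 1.17.1 and matplotlib 3.10.9 were used.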

Additional observations from a re-analysis of the deposited data

How the results depend on the processing

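Of 115 alternative values, 73 stayed close to the value reported and 42 did not. Close meant within 1.5 times a count, length or distance, or within the 95% interval of a median or share. For medians of HOXA and HOXB this interval is the full range of their peaks, and for HOXD the range was used. Medians of peaks kept from these windows could not leave it, so their place among the 73 shows no stability. For shares it was a Wilson interval, which treats the regions as a sample though all were counted. Small shifts of a share, such as those after merging, are thus among the 42. Keeping the better-scoring 50% of the list left 3 peaks in the HOXA window, 6 in HOXC and 2 in HOXD, 3 at the HOXB group 13 end, 1 at that of HOXD, and 1 and 0 at the opposite ends of HOXA and HOXD. The best-scoring 10% left 0 peaks in HOXA, 0 in HOXB, 2 in HOXC and 1 in HOXD, 1 at the HOXC group 13 end and 0 at those of HOXB and HOXD, and 0 at each of the 4 opposite ends. The HOXC median score was then 1044 and its median width 450.5 bp. The longest stretch between peaks of the HOXC window was 110.3 kb, and the nearest peak to HOXB13 lay 840 kb away. These losses follow from the smaller lists. The longest stretch in HOXD became 74.4 kb with the better-scoring 50%, because the peak at the HOXD1 side was lost and both bounding peaks must lie in the window. The share of regions with at least as many peaks as the window was 34.2%, 29.6%, 4.77% and 53.0% for HOXA, HOXB, HOXC and HOXD with the better-scoring 50%, and 7.70% for HOXC and 30.8% for HOXD with the best-scoring 10%. It was 11.3%, 39.7% and 1.48% for HOXA, HOXB and HOXC after merging, which joined none of the 30 peaks. Without flanks the counts were 3, 2 and 0 for HOXA, HOXB and HOXD. With 25 kb on either side of the edge, 2 peaks lay at the HOXB group 13 end, as at that of HOXC, and 1 at that of HOXD. With 100 kb, 2 lay at that of HOXA and 9 at that of HOXC, so that HOXC and not HOXB had the most at the group 13 end. The opposite ends of HOXA and HOXC then held 7 each. At this width the ends of HOXA overlap each other and share peaks, as do those of HOXC, since the edges of each cluster lie 120 kb apart. Any overlap gave 1 peak at the HOXA group 13 end. Values that need a peak, or a pair of peaks, left in the window were not computed where the best-scoring 10% held too few. Alternatives that need an hg19 annotation or a value per replicate were not run. No paired analysis was possible because the 2 replicates share 1 group and 1 list. The unknown depth and the list's lower limit of score, 80.01, restrict what an empty region can show.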
